A study of Mus musculus with 22 samples.

Results

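The genes described here are a module of 36 mouse genes of glycolysis and of the response to low oxygen. They were chosen by gene symbol, and a member was kept on an array platform when a probe carrying its symbol had a detection p under 0.01 on at least 2 arrays. By role the module holds 18 glycolytic enzymes, 4 regulators of glycolytic flux and pyruvate entry, 13 further targets of hypoxia-inducible factor (HIF) and 1 HIF subunit. Of the 36 genes, 29 were kept on at least 1 platform, among 12171 genes kept in all. Expression was measured in mouse embryonic stem cells on Illumina bead arrays, where total RNA is labelled with biotin and read as 1 intensity per probe. Per the culture text of the samples, which names lines B18 and B20 alone, cells were grown in N2B27, a serum-free medium, with the cytokine LIF. The groups differed in the small-molecule inhibitors added to the medium. R2i holds PD0325901 (PD), an inhibitor of MEK, and SB431542 (SB), which blocks type I receptors of the TGF-beta, Activin and Nodal group. 2i holds PD and CHIR99021, an inhibitor of GSK3. PD and SB also name the media with that inhibitor alone.

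Lines B18 and B20, from C57BL/6 blastocysts, were run on MouseRef-8 arrays, with 3 R2i, 3 PD and 2 2i arrays for each line. Per the labels they were derived and kept in R2i for over 10 passages and then grown for 10 passages in the other media. Line B4 (C57BL/6) and line C17 (BALB/c) were run on MouseWG-6 arrays, with 1 array each in R2i, PD and SB. The culture text of all samples names B18 and B20 alone, so the history of B4 and C17 in culture is not given in the sources used here. On the C17 arrays in PD and SB, the cell line field reads B4 while the title reads C17, and the titles were followed. B18 and B20 lay on a chip each, so line and chip cannot be told apart. On each of these chips PD arrays held positions A to C, R2i arrays D to F and 2i arrays G and H. Medium and position on the chip therefore cannot be told apart either. Nothing in the labels says that replicate arrays came from separate cultures, so p-values measure the spread between arrays, which may be technical. In each of the 2 sets of lines 27 members were kept, and the comparisons below are over those 27.

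Glycolysis turns glucose into pyruvate through a chain of enzymes that starts with the hexokinases and ends with pyruvate kinase, after which lactate dehydrogenase reduces pyruvate to lactate or pyruvate dehydrogenase feeds it to mitochondria. HIF is a transcription factor whose alpha subunit is marked for degradation by oxygen-dependent prolyl hydroxylases, and when oxygen is low it raises many glycolytic genes together with genes of angiogenesis, pH control and growth arrest. Mouse embryonic stem cells use both glycolysis and respiration, and cells of the later, primed epiblast state rely more on glycolysis.

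Between 10822 and 11670 probes were detected on the B18 and B20 arrays and between 13591 and 14366 on the B4 and C17 arrays, and arrays of a group correlated at 0.990 or more. Of 10 embryonic stem cell markers, all 9 with a probe on the B18 and B20 arrays, and all 10 on the B4 and C17 arrays, were detected on every array. Their summed log2 intensity in B18 and B20 ran from 99.28 to 102.64 on R2i arrays, from 102.44 to 103.05 on 2i arrays and from 103.11 to 104.30 on PD arrays. Of 8 feeder fibroblast markers 2 were kept on each platform, and the collagen genes Col1a1, Col1a2 and Col3a1 were not. Of 4 neural markers 0 and 1 were kept in the 2 sets of lines, of 5 trophoblast markers 3 and 2, of 6 primitive streak markers 2 and 1, and of 4 primed epiblast markers 3 and 3. Kept markers of primitive endoderm numbered 3 of 7 in B18 and B20, where Gata4, Sox17, Pdgfra and Foxa2 were not kept, and 1 of 7 in B4 and C17. The summed log2 intensity of the 3 in B18 and B20 ran from 16.63 to 17.16 on R2i arrays, from 14.80 to 15.58 on 2i arrays and from 17.13 to 18.41 on PD arrays, lowest in 2i. The 3 trophoblast markers summed to between 21.21 and 22.39 in R2i, 20.44 and 21.22 in 2i and 20.22 and 22.20 in PD. Of these, Gata3 and Tfap2c were called higher in R2i than in 2i (0.99 and 0.37) and than in PD (0.64 and 0.62). The other kept marker, Eomes, was called lower in R2i than in PD and was not called in R2i against 2i. The 2 feeder markers summed to between 10.49 and 11.81 in R2i, 11.20 and 11.92 in 2i and 10.25 and 11.22 in PD, and Thy1 was called 0.88 higher in 2i than in PD. The 2 streak markers lay between 10.44 and 12.33 in R2i, 10.84 and 11.79 in 2i and 11.06 and 12.94 in PD, and the 3 primed epiblast markers between 25.18 and 26.60, 24.51 and 25.74, and 26.11 and 27.03. In B4 and C17 the streak marker kept was Gsc, at 6.62 to 7.18 in R2i, 6.44 to 6.98 in PD and 4.68 to 5.89 in SB, and the primed epiblast markers summed to between 28.45 and 28.93, 27.92 and 29.00, and 29.15 and 29.57 in those media. The part of these marker lists in the results below was not tested. In such bulk RNA, fewer cells of a type and less RNA per cell cannot be told apart.

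**Figure D1:**
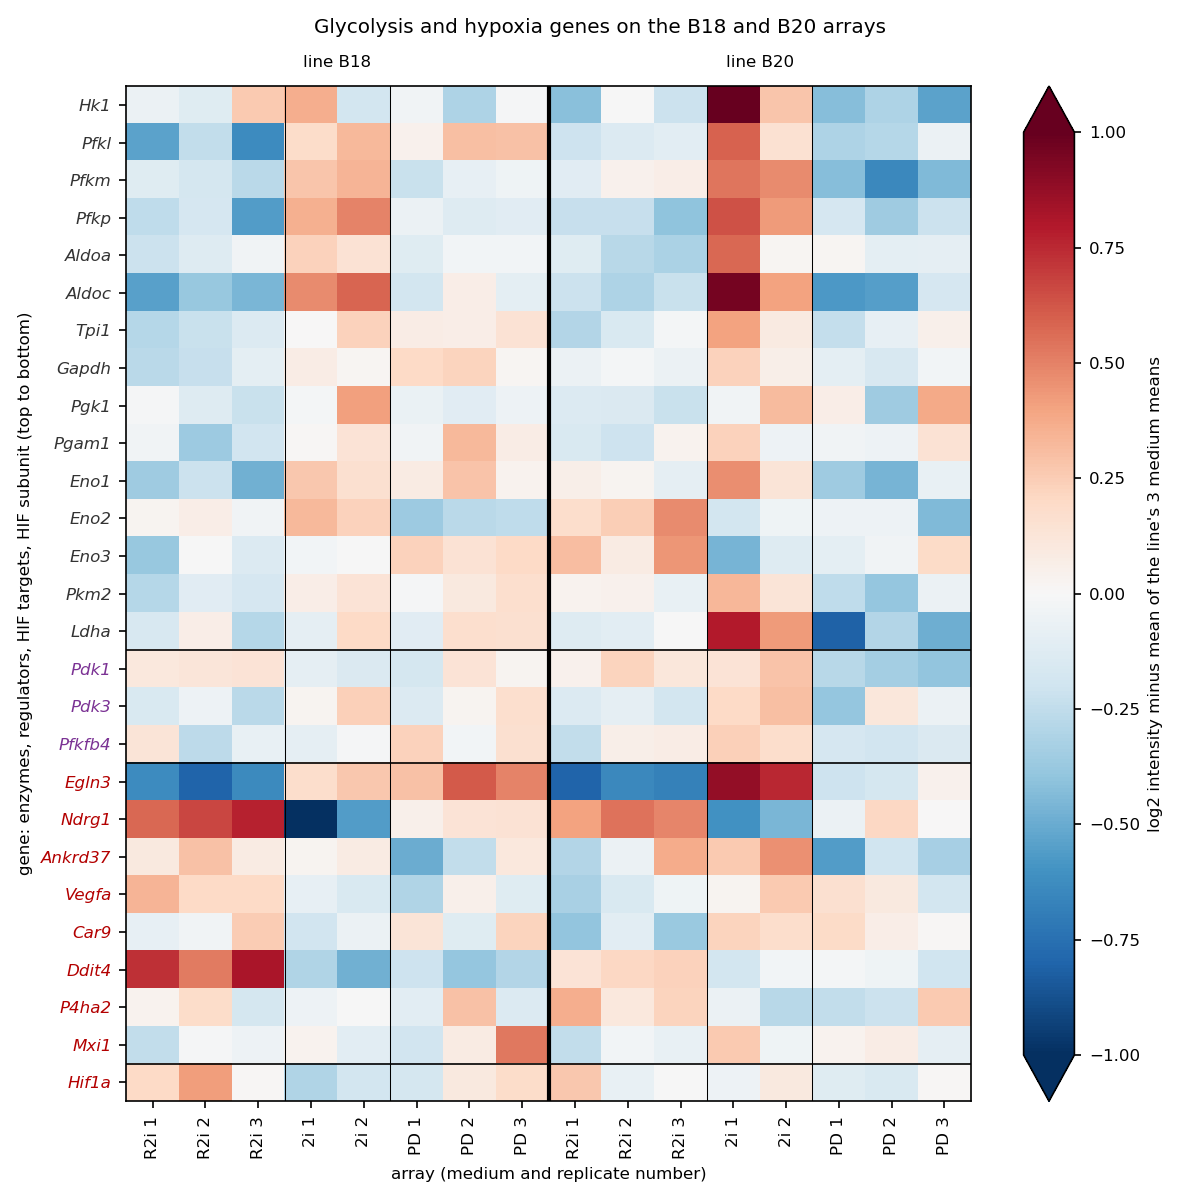
Each cell is the log2 intensity of a gene on an array minus the mean of that line's 3 medium means, with genes in rows (black enzymes, purple regulators, red HIF targets and HIF subunit) and the 16 arrays of B18 and B20 in columns. Among enzymes the 2i columns are mostly red, Egln3 is blue and Ndrg1 and Ddit4 are red on all 6 R2i arrays. The first 2i array of B20 is darker than the second for Hk1, Aldoc and Ldha.

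R2i against 2i compares the addition of SB with that of CHIR99021 to PD. Glycolytic enzymes were lower in R2i: 11 of the 15 kept fell, none rose, and their median log2 change was -0.42, against 0.01 over all genes. HIF targets moved in both directions, with 2 of 8 higher, 1 lower and a median of -0.05. Over all 27 members, 2 rose and 13 fell, which is 55.6%, beside 27.6% of the 9207 genes tested (14.2% higher and 13.4% lower). The fit was limma over all 16 arrays with a mean for each line and medium, calls were made at an adjusted p (Benjamini-Hochberg over all genes) under 0.05, and arrays with the same replicate number were not paired.

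Aldoc and the 3 phosphofructokinase genes had the widest differences among the enzymes. Aldoc encodes aldolase C, the brain form of the enzyme that splits fructose 1,6-bisphosphate. Its log2 intensity in B18 was 7.85, 8.02 and 7.94 in R2i, 8.87 and 8.98 in 2i, and 8.21, 8.46 and 8.30 in PD. In B20 it was 7.64, 7.54 and 7.63 in R2i, 8.81 and 8.25 in 2i, and 7.28, 7.30 and 7.68 in PD. Every R2i array lay below every 2i array, and the difference was 1.94-fold (log2 change -0.96, SE 0.10, adjusted p = 3.6e-06, limma). Pfkp encodes the platelet form of phosphofructokinase, which makes fructose 1,6-bisphosphate in the committed step. Pfkp read 9.62, 9.71 and 9.32 in R2i, 10.23 and 10.37 in 2i and 9.82, 9.75 and 9.76 in PD of B18. In B20 it read 9.61, 9.61 and 9.44 in R2i, 10.48 and 10.27 in 2i and 9.67, 9.49 and 9.63 in PD. All 4 2i arrays were above the other 12, and R2i was 1.73-fold below 2i (log2 change -0.79, SE 0.08, adjusted p = 2.7e-06, limma).

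Pfkl, the liver form, read 10.19, 10.48 and 10.10 in R2i, 10.91 and 11.05 in 2i and 10.77, 11.03 and 11.02 in PD of B18. In B20 Pfkl read 10.32, 10.39 and 10.42 in R2i, 11.12 and 10.68 in 2i and 10.22, 10.24 and 10.47 in PD. R2i arrays were again below every 2i array (log2 change -0.62, SE 0.10, adjusted p = 1.8e-04, limma), while PD arrays sat with 2i in B18 and with R2i in B20. A second, dimmer Pfkl probe did not pass, at -0.03 (adjusted p = 0.84). Pfkm, the muscle form, was 0.51 lower (SE 0.07), and 2 of its 3 kept probes passed. The other enzymes that fell were Hk1 (-0.46), a hexokinase that traps glucose as its 6-phosphate, Eno1 (-0.43), a major enolase, Ldha (-0.43), the lactate dehydrogenase subunit that favours lactate, Aldoa (-0.42), Tpi1 (-0.36), which interconverts triose phosphates, Pkm2 (-0.26), pyruvate kinase of muscle and growing cells, and Gapdh (-0.22). Not called were Pgk1 (-0.31) and Pgam1 (-0.23), which act between Gapdh and enolase, and the neuronal and muscle enolases Eno2 (0.07) and Eno3 (0.21). The Pgk1 probe on these arrays was dim, with log2 intensities near background.

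The first 2i array of B20 had the highest Hk1, Aldoc, Pfkl and Ldha values of that line, at 7.26, 8.81, 11.12 and 11.71, against 6.54, 8.25, 10.68 and 11.34 on the other 2i array. Without it, 12 members were called in place of 15, 11 of them the same genes, and without any other single array the count ran up to 17. Within single lines the enzyme medians were -0.31 in B18 and -0.39 in B20, beside 0.01 over all genes in each line. With each line fitted alone, 9 and 7 enzymes were lower and 0 and 1 higher. Shares of all genes called in the fits of single lines are not given here, so such counts cannot be compared between lines.

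Among regulators, Pdk3, a kinase that switches off pyruvate dehydrogenase, was 0.34 lower in R2i than in 2i (SE 0.09, adjusted p = 0.013, limma). In B18 it read 7.33, 7.43 and 7.21 in R2i, 7.51 and 7.72 in 2i and 7.34, 7.51 and 7.65 in PD. In B20 it read 7.19, 7.24 and 7.15 in R2i, 7.53 and 7.63 in 2i and 6.94, 7.44 and 7.27 in PD. R2i and 2i arrays did not overlap, whereas PD arrays spanned both. Pdk1, a kinase of the same family, and Pfkfb4, which makes and degrades the phosphofructokinase activator fructose 2,6-bisphosphate, were not called, at 0.08 and -0.13.

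Egln3 had the lowest change of any member and Ndrg1 the highest, and these were the only members with at least 2-fold calls in this comparison (1.24% of all genes had one). Egln3 encodes PHD3, a HIF prolyl hydroxylase that is itself raised by HIF. In B18 its log2 intensity was 6.00, 5.83 and 5.99 in R2i, 6.81 and 6.90 in 2i, and 6.92, 7.24 and 7.13 in PD. In B20 it was 5.61, 5.77 and 5.74 in R2i, 7.29 and 7.17 in 2i, and 6.21, 6.24 and 6.46 in PD. All 6 R2i arrays were below all 10 others, and R2i was 2.33-fold below 2i (log2 change -1.22, SE 0.08, adjusted p = 1.3e-08, limma). The RefSeq promoter window of Egln3 (GRCm38.p6, chr12:54203825-54204124, minus strand, from 250 bases before to 50 after the start) is shown because the gene had a 2-fold call, with matches to the HIF core motifs ACGTG and GCGTG, sought on both strands, in capitals. The match, an ACGTG, begins at position -229 from the start.
Egln3 promoter: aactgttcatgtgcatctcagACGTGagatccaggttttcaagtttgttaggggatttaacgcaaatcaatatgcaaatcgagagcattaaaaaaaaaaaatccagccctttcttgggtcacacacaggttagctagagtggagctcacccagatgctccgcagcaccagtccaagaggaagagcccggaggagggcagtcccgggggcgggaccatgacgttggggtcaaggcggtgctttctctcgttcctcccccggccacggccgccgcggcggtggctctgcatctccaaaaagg

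Ndrg1, a differentiation-linked gene of the stress response that HIF raises, ran the other way. In B18 Ndrg1 was 8.67, 8.76 and 8.86 in R2i, 7.09 and 7.53 in 2i and 8.14, 8.23 and 8.24 in PD. In B20 it was 8.07, 8.21 and 8.15 in R2i, 7.06 and 7.21 in 2i and 7.61, 7.87 and 7.67 in PD. In each line R2i arrays were highest, PD arrays intermediate and 2i arrays lowest, with no overlap. R2i was 2.35-fold above 2i (log2 change 1.23, SE 0.09, adjusted p = 2.5e-08, limma).

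Ddit4, also called REDD1, an inhibitor of mTORC1 raised by hypoxia and other stresses, was 0.69 higher in R2i than in 2i (SE 0.08, adjusted p = 4.5e-06, limma). B18 values were 10.03, 9.82 and 10.12 in R2i, 9.0 and 8.82 in 2i and 9.10, 8.92 and 9.01 in PD. B20 values were 9.48, 9.55 and 9.57 in R2i, 9.16 and 9.31 in 2i and 9.32, 9.30 and 9.14 in PD. The R2i arrays of each line were above its other arrays, with a wider gap in B18. The 5 HIF targets that were not called were Ankrd37 (-0.13), Vegfa (0.02), the vascular growth factor, Car9 (-0.16), a carbonic anhydrase, P4ha2 (0.22), a collagen prolyl hydroxylase subunit, and Mxi1 (-0.15), an antagonist of MYC. Hif1a, the regulated HIF subunit, was not called either at 0.25 (adjusted p = 0.068, limma).

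**Figure D2:**
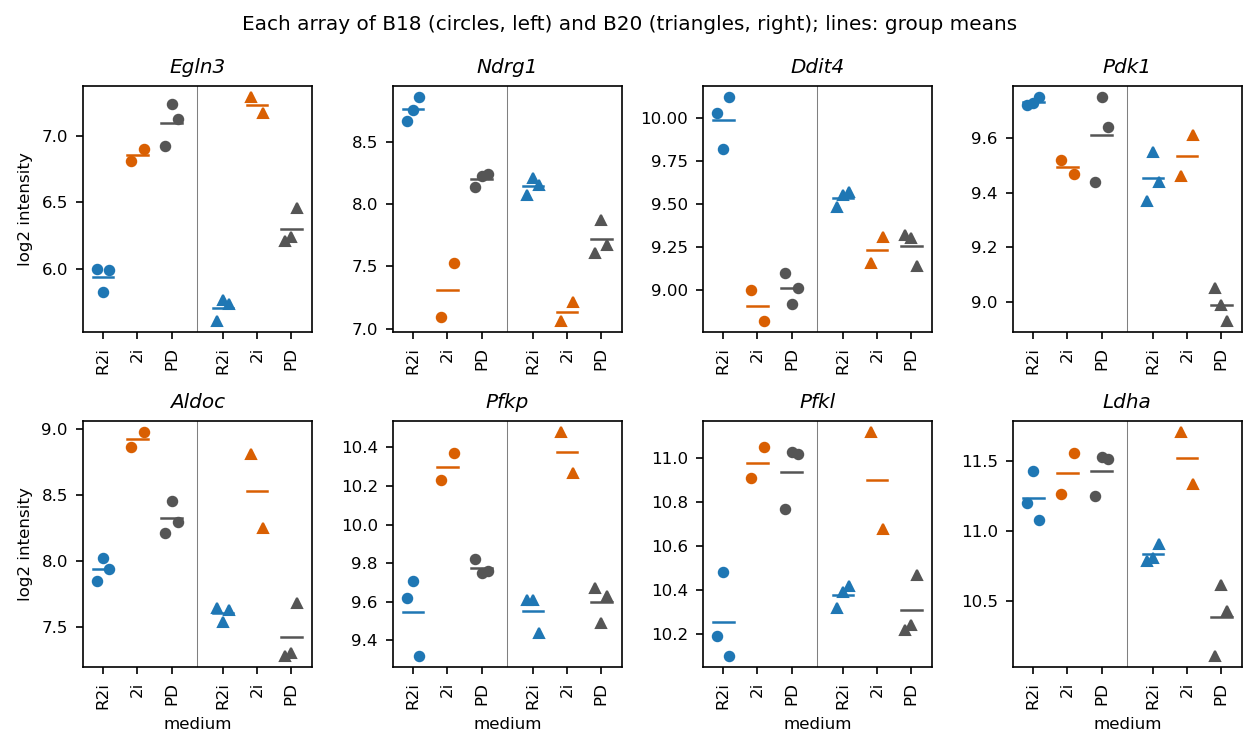
Log2 intensity of 8 members on each array, with B18 as circles on the left and B20 as triangles on the right of each panel, and a line at each group mean (3 arrays, 2 for 2i). Egln3 is lowest and Ndrg1 and Ddit4 highest in R2i in each line, and Aldoc and Pfkp are highest in 2i.

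2i against PD compares media with and without CHIR99021 beside PD, both entered from R2i. Enzymes were higher in 2i, with 10 of 15 called, none lower and a median change of 0.32 against -0.01 over all genes. Fitted alone, B18 had 4 of 15 higher with a median of 0.08 and B20 had 8 higher with a median of 0.46, with none lower in either line. The median over all genes was -0.01 in each of these fits, and their shares of all genes called are not given here. Over all members 13 rose and 1 fell (51.9%, beside 23.6% of all genes, 11.4% higher and 12.2% lower), and none of these calls reached 2-fold. HIF targets had 2 of 8 higher and 1 lower, with a median of -0.04. The comparison shares its 2i arrays with the preceding one, so the values are not independent of it. They depended on the scaling: with arrays set to a common median in place of common quantiles, 6 members were higher and 2 lower, and 21.2% of all called genes were higher in place of 48.2%, with the median of all genes at -0.10. Relative to that median, the enzyme median was 0.30.

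Aldoc was 1.81-fold higher in 2i than in PD (log2 change 0.85, SE 0.10), Pfkm 1.65-fold (0.72, SE 0.07) and Pfkp 1.57-fold (0.65, SE 0.08). Pfkm read 10.33 and 10.39 in 2i and 9.83, 9.97 and 10.01 in PD of B18, and 10.12 and 10.06 in 2i and 9.16, 8.94 and 9.14 in PD of B20. Its R2i arrays read 9.93, 9.88 and 9.78 in B18 and 9.47, 9.63 and 9.65 in B20. No PD or R2i array of Pfkm reached the 2i arrays of either line. Hk1 was 0.63 higher, with 7.10 and 6.55 in 2i against 6.70, 6.43 and 6.72 in PD of B18, where the groups overlapped. In B20 Hk1 read 7.26 and 6.54 in 2i against 5.84, 5.96 and 5.73 in PD, with no overlap, and its R2i arrays read 6.68, 6.61 and 7.0 in B18 and 5.85, 6.26 and 6.05 in B20. Ldha (0.56), Eno1 (0.34), Eno2 (0.32), Pfkl (0.32), Aldoa (0.30) and Pkm2 (0.24) made up the rest. The dimmer Pfkl probe had the other sign and did not pass, at -0.17 (adjusted p = 0.2, limma). The Pkm2 call was lost without any 1 of 7 arrays, that of Pfkl without any 1 of 5, Aldoa 3 and Eno1 2. Pgk1 (0.19), Tpi1 (0.18), Gapdh (0.07), Pgam1 (0.01) and Eno3 (-0.26) were not called, and Eno3 was called lower with median scaling, at -0.36 (adjusted p = 0.012, limma). With median scaling, 5 enzymes were still called higher, namely Aldoc, Pfkm, Hk1, Pfkp and Ldha.

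Of the HIF targets, Ndrg1 was 0.74 lower in 2i than in PD (SE 0.09, adjusted p = 1.0e-05, limma), while Ankrd37, an ankyrin repeat gene raised by HIF, was 0.50 higher (SE 0.13, adjusted p = 0.0093, limma) and Egln3 0.34 higher (SE 0.08, adjusted p = 0.0055, limma). Ankrd37 read 5.86 and 5.92 in 2i, 5.34, 5.59 and 5.94 in PD and 5.93, 6.13 and 5.92 in R2i of B18. In B20 it read 5.78 and 5.98 in 2i, 4.96, 5.32 and 5.19 in PD and 5.23, 5.46 and 5.89 in R2i, where the PD array at 4.96 was not above background. Its 2i and PD arrays overlapped in B18 and not in B20. For Egln3, 2i exceeded PD by 0.92 in B20 with no overlap, and in B18 alone the change was -0.24 (adjusted p = 0.16, limma), with the 2i arrays below the PD arrays. Vegfa (0.06), Mxi1 (-0.04), Car9 (-0.05), Ddit4 (-0.06), P4ha2 (-0.07) and Hif1a (-0.08) were not called.

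Pdk1, which phosphorylates and inhibits pyruvate dehydrogenase, was 0.21 higher in 2i and 0.29 higher in R2i than in PD (SE 0.07 and 0.06, adjusted p = 0.041 and 0.004, limma). In B18 it read 9.72, 9.73 and 9.75 in R2i, 9.52 and 9.47 in 2i and 9.44, 9.75 and 9.64 in PD. In B20 it read 9.37, 9.55 and 9.44 in R2i, 9.46 and 9.61 in 2i and 9.05, 8.99 and 8.93 in PD. In B18 the PD arrays spanned those of the other media, and the PD arrays of B20 were below every other array. With median scaling neither call held. The 2i call was also lost with a replicate block, with array weights and without any 1 of 10 of the 16 arrays. The R2i call held with each of the 16 arrays left out. Pdk3 (0.24) and Pfkfb4 (0.10) were not called in 2i against PD. The first of 2 RefSeq windows of Pdk1 (GRCm38.p6, chr2:71872974-71873273, plus strand) is shown because Pdk1 had 2-fold calls in the other lines, and it holds GCGTG at positions -78 and -2 from the start, in capitals. The second window had no match.
Pdk1 promoter: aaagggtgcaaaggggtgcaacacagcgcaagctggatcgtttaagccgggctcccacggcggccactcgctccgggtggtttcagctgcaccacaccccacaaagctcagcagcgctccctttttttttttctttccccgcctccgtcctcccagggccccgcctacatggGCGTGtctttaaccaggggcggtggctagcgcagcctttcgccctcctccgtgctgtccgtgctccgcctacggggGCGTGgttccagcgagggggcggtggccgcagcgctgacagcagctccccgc

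**Figure D3:**
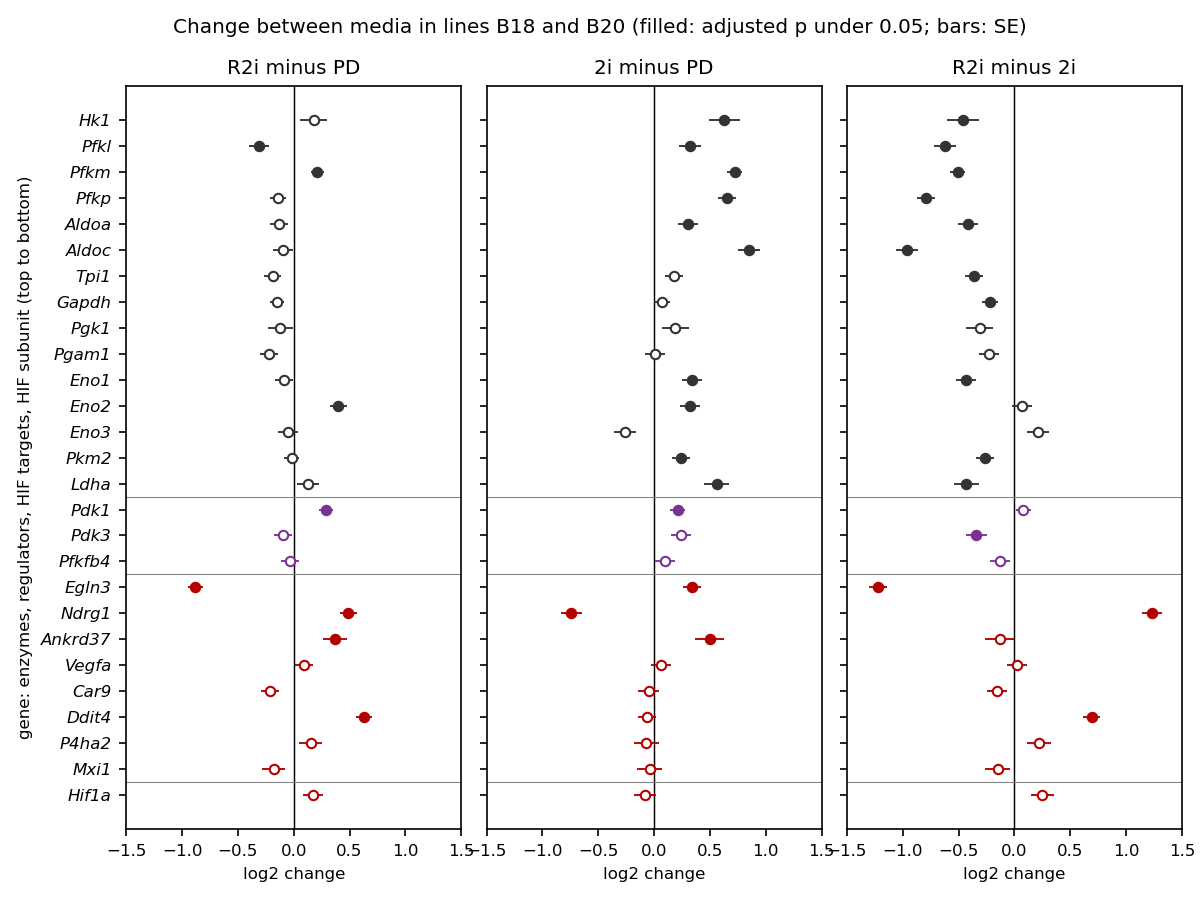
Log2 change with its SE for the 27 members in 3 comparisons of B18 and B20, where filled points have an adjusted p under 0.05. Enzymes other than Eno3 lie to the right of 0 for 2i minus PD, enzymes other than Eno2 and Eno3 lie to the left for R2i minus 2i, and HIF targets lie on either side.

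R2i against PD tests the addition of SB to PD. Here 6 members rose and 2 fell (29.6%, beside 18.8% of all genes, 9.23% higher and 9.58% lower). Enzymes had 2 higher, 1 lower and a median of -0.10, and HIF targets had 3 higher, 1 lower and a median of 0.12, against 0.01 over all genes. With median scaling 4 members were higher and 5 lower, and 28.3% of all called genes were higher in place of 49.1%.

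Egln3 was 0.88 lower in R2i than in PD (SE 0.07, adjusted p = 1.9e-07, limma), and its R2i and PD arrays, given above, did not overlap. Ddit4 was 0.63 higher (SE 0.07, adjusted p = 5.3e-06), Ndrg1 0.49 higher (SE 0.08, adjusted p = 2.3e-04) and Ankrd37 0.37 higher (SE 0.11, adjusted p = 0.033, all by limma). Ndrg1 R2i arrays were above PD arrays within each line, and Ankrd37 arrays overlapped. Ankrd37 was no longer called without any 1 of R2i 2, PD 1 or PD 2 of B18 or R2i 3 or PD 1 of B20. Car9 (-0.21), Mxi1 (-0.18), P4ha2 (0.15), Vegfa (0.09) and Hif1a (0.17) were not called. On the R2i arrays of B20, Car9 was not above background, at 4.65, 4.94 and 4.67, so its level there is only bounded from above.

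Eno2, the neuronal enolase, was 1.32-fold higher in R2i than in PD (log2 change 0.40, SE 0.08, adjusted p = 0.0017, limma). It read 7.36, 7.40 and 7.30 in R2i, 7.66 and 7.57 in 2i and 6.97, 7.07 and 7.08 in PD of B18. In B20 it read 7.53, 7.60 and 7.83 in R2i, 7.17 and 7.31 in 2i and 7.30, 7.30 and 6.91 in PD. R2i arrays were above PD arrays in each line, and 2i arrays were highest in B18 but level with PD in B20. Pfkm was 0.21 higher and Pfkl 0.31 lower (adjusted p = 0.026 and 0.022, limma), and neither had the same sign in each line: Pfkm was -0.07 in B18 and 0.50 in B20, and Pfkl -0.68 in B18 and 0.07 in B20. Each of these 2 calls was lost without any of several single arrays, 6 for Pfkm and 5 for Pfkl. The remaining enzymes, Hk1 (0.18), Ldha (0.13), Pkm2 (-0.02), Eno3 (-0.05), Eno1 (-0.09), Aldoc (-0.10), Pgk1 (-0.12), Aldoa (-0.13), Pfkp (-0.14), Gapdh (-0.15), Tpi1 (-0.19) and Pgam1 (-0.22), were not called, nor were Pdk3 (-0.10) and Pfkfb4 (-0.03). A dimmer Tpi1 probe was called lower, at -0.29 (adjusted p = 0.029, limma), and the dimmest kept Tpi1 probe was not, at -0.22.

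The change from PD to R2i differed between the lines for 7 of the 27 members (25.9%, beside 4.27% of all genes, 2.13% more positive and 2.14% more negative in B20), by a test of the difference of the changes. It was higher in B20 than in B18 for Eno1 by 0.78 (-0.48 in B18, 0.30 in B20), for Pfkl by 0.75 (-0.68, 0.07), for Eno3 by 0.63 (-0.37, 0.26), for Pfkm by 0.58 (-0.07, 0.50) and for Pkm2 by 0.51 (-0.28, 0.23). Eno1 read 12.07, 12.21 and 11.94 in R2i, 12.69 and 12.58 in 2i and 12.5, 12.71 and 12.46 in PD of B18, with R2i lowest. In B20 Eno1 read 12.21, 12.18 and 12.06 in R2i, 12.62 and 12.28 in 2i and 11.80, 11.69 and 12.08 in PD, with PD lowest though overlapping R2i. Eno3 read 6.23, 6.60 and 6.47 in R2i, 6.58 and 6.60 in 2i and 6.84, 6.75 and 6.81 in PD of B18, and 7.14, 6.91 and 7.27 in R2i, 6.36 and 6.70 in 2i and 6.73, 6.79 and 7.02 in PD of B20. Its R2i arrays were thus below PD arrays in B18 and mostly above them in B20. Egln3 was lower in each line but by less in B20 (-1.16 and -0.60), and Ddit4 was 0.98 higher in B18 and 0.28 higher in B20. Fitted alone, B18 had 7 enzymes lower and 1 higher with a median of -0.28, while B20 had none lower and 1 higher with a median of 0.18. Medians over all genes were -0.00 in B18 and 0.01 in B20, and the shares of all genes called in these fits are not given here. Single arrays mattered here: 1 difference remained called without PD 2 of B18, 2 without R2i 3 or PD 3 of B18 or PD 2 of B20, 3 without R2i 1 of B18 or R2i 3 or PD 1 of B20, and 4 without R2i 2 of B20. The adjusted p of Pkm2, 0.04995, lay at the threshold. Its difference was lost without any 1 of 13 of the 16 arrays, and that of Eno3 without any 1 of 11.

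For 2i against PD the change differed between the lines for 4 members (14.8%, beside 1.72% of all genes, 1.09% more positive and 0.63% more negative in B20), and each was more positive in B20. Egln3 differed by 1.16 (-0.24 in B18, 0.92 in B20) and Ldha by 1.15 (-0.02, 1.14). Ldha read 11.27 and 11.56 in 2i and 11.25, 11.53 and 11.52 in PD of B18, with overlap, and 11.71 and 11.34 in 2i and 10.11, 10.62 and 10.43 in PD of B20, with none. Its R2i arrays were at 11.20, 11.43 and 11.08 in B18 and 10.79, 10.81 and 10.91 in B20. Pdk1 differed by 0.66 (-0.12, 0.54) and Pfkm by 0.58 (0.43, 1.01). The Pfkm difference was no longer called without any 1 of 15 of the 16 arrays. The count fell to 1 without 2i 1 of B18 and to 2 without any 1 of 2i 2, PD 2 or PD 3 of B18 or 2i 1 or PD 2 of B20. For R2i against 2i only Ddit4 differed between the lines (-0.78, 3.7% of members beside 1.35% of all genes, 0.467% more positive and 0.88% more negative in B20). No difference was called without R2i 1 or 2i 2 of B18, 3 without 2i 2 of B20 and 5 without PD 3 of B20. With median scaling, 80.8% of all called differences for 2i against PD were more positive in B20 in place of 63.3%, and 11.6% in place of 34.7% for R2i against 2i, with the median of all genes at 0.11 and -0.12.

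**Figure D4:**
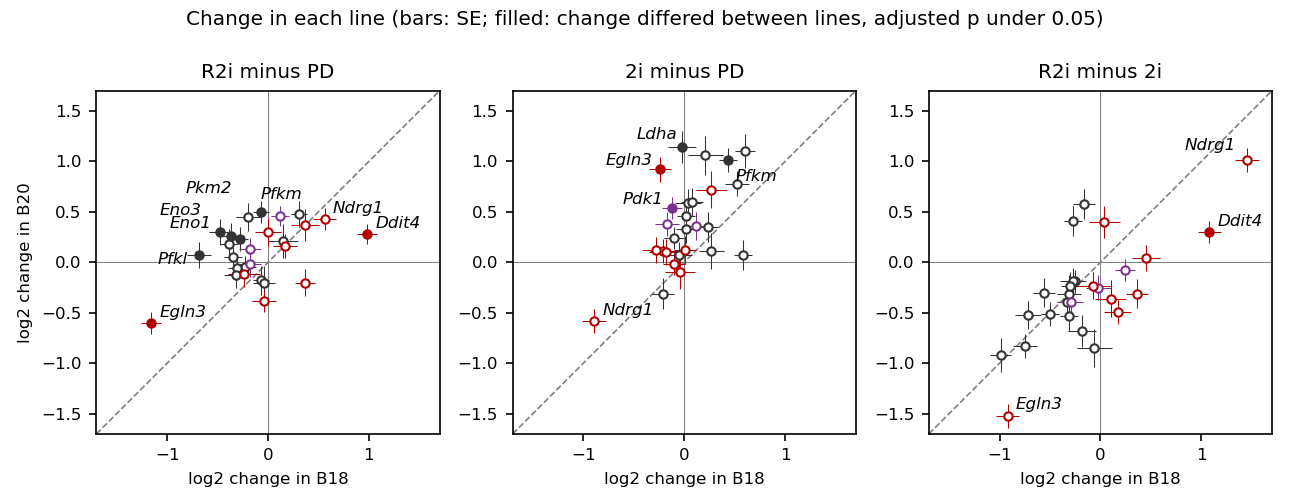
Log2 change of each member in B18 (horizontal) and B20 (vertical), with SE bars, and filled points where the change differed between the lines at an adjusted p under 0.05. Most enzymes lie above the dashed line of equal change in the comparisons with PD, and Egln3, Ndrg1 and most enzymes have the same sign in each line for R2i minus 2i.

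Averaged over the 3 media, B20 was lower than B18 for 16 members and higher for 1 (63%, beside 33% of all genes, 15.7% higher and 17.3% lower). Among them were Aldoc (-0.54), Hk1 (-0.47), Pfkm (-0.47), Pdk1 (-0.29), Ndrg1 (-0.43) and Car9 (-0.34), and Eno3 (0.22) was the one higher. Line and chip coincide here, and the direction rested on the scaling: with median scaling 7 members were higher in B20 and 6 lower, 88.6% of all called genes were higher in place of 47.7%, and the median of all genes was 0.16. The other genes lower in B20 were Ldha (-0.45), Pgam1 (-0.44), Aldoa (-0.38), P4ha2 (-0.31), Ankrd37 (-0.31), Tpi1 (-0.29), Eno1 (-0.27), Gapdh (-0.26), Egln3 (-0.22) and Pkm2 (-0.21). Car9 read 5.31, 5.35 and 5.64 in R2i, 5.20 and 5.33 in 2i and 5.52, 5.27 and 5.61 in PD of B18, and outside R2i of B20 it read 5.27 and 5.22 in 2i and 5.24, 5.11 and 5.06 in PD, being above background on 4 of the 8 B20 arrays. P4ha2 read 6.00, 6.15 and 5.79 in R2i, 5.92 and 5.96 in 2i and 5.86, 6.26 and 5.83 in PD of B18. In B20 P4ha2 read 6.02, 5.76 and 5.88 in R2i, 5.60 and 5.38 in 2i and 5.41, 5.44 and 5.92 in PD. The lines overlapped for each of these genes.

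B4 and C17 carry the media R2i, PD and SB, so that PD can be compared with SB, with the line as the only replicate and 2 residual degrees of freedom. For R2i against PD no member was called by limma (0.136% of all genes were, 0.0364% higher and 0.1% lower), 1 was called without either SB array, 3 had an unadjusted p under 0.05 and the lowest adjusted p was 0.24. That lowest one was Ndrg1, with a change of 0.69 (SE 0.18), which was 0.70 in B4 and 0.68 in C17, beside 0.49 in B18 and B20. The other 2 were Eno3 (-0.49) and Ddit4 (-0.39, beside 0.63 in B18 and B20). On simulated arrays, this design recovered 25% of changes of 0.5 and 100% of changes of 1, and the B18 and B20 design 95% and 100%. The simulated arrays held normal noise, no difference between lines and 100 changed genes per size, so recovery on the deposited arrays may differ. Recovery where the size of a change differs between the lines was not tested. Of 25 members tested in each set, 14 had the same sign of the R2i minus PD change (56%), beside 58.1% of 8038 genes. Egln3 was -0.33 in these lines (adjusted p = 0.64, limma). It read 7.51 in R2i, 7.61 in PD and 7.35 in SB of B4 and 7.32, 7.88 and 7.87 in those media of C17.

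Pdk1 was higher in SB than in the other media of these lines. It read 8.09 in R2i, 8.18 in PD and 8.76 in SB of B4, and 8.57 in R2i, 8.36 in PD and 10.02 in SB of C17. Each SB array was above every R2i and PD array, with a larger gap in C17. R2i was 2.09-fold below SB (log2 change -1.06, SE 0.22, adjusted p = 0.042, limma) and PD 2.16-fold below it (-1.11, SE 0.22, adjusted p = 0.019, limma). The first call was lost without any 1 of the R2i arrays or the SB array of C17, and the second without the PD or the SB array of C17, which are the 2 arrays whose labels disagree.

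Ndrg1 was 2.01-fold above SB in R2i (log2 change 1.01, SE 0.18, adjusted p = 0.024, limma). It read 8.20 in R2i, 7.50 in PD and 7.52 in SB of B4, and 7.63, 6.95 and 6.30 in C17. R2i was highest in each line, and PD and SB were level in B4. The call was lost without the R2i or SB array of C17. Ndrg1 and Pdk1 were the 2 members called (7.41%, beside 2.2% of all genes, 1.02% higher and 1.18% lower), each at least 2-fold (0.836% of all genes). Without 1 array the count was 0 without the R2i or SB array of C17, 1 without the R2i array of B4 and 5 without the SB array of B4. Of the genes called higher and lower in this comparison 46.3% were higher, or 31.6% with median scaling. Ddit4 was not called at -0.63 (adjusted p = 0.062, limma), with 9.16 in R2i, 9.51 in PD and 9.61 in SB of B4 and 9.27, 9.70 and 10.07 in C17.

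PD against SB also had 2 members called (7.41%, beside 5.24% of all genes, 2.78% higher and 2.45% lower), Ankrd37 and, at least 2-fold (1.56% of all genes), Pdk1. The count was 0 without the PD array of C17 and 1 without the PD array of B4 or the SB array of C17. Ankrd37 read 6.98 in R2i, 7.09 in PD and 6.44 in SB of B4, and 7.63, 7.78 and 7.09 in C17. SB was lowest in each line, and PD exceeded SB by 0.67 (SE 0.14, adjusted p = 0.022, limma), by 0.65 in B4 and 0.68 in C17. That call was lost without any 1 of the 4 PD and SB arrays. No enzyme was called in any of the 3 medium comparisons of these lines, where the enzyme medians were 0.06 for R2i against PD, 0.18 for R2i against SB and 0.15 for PD against SB. The enzymes ranged from -0.34 (Eno3) to 0.46 (Pfkp) for R2i against SB and from -0.26 (Eno2) to 0.54 (Pfkp) for PD against SB. Gpi1, glucose phosphate isomerase, and P4ha1, measured in these lines alone, were at 0.19 and 0.21 for R2i against SB, and neither was called.

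The BALB/c line C17 had 9 members higher and 4 lower than B4 over the 3 media (48.1%, beside 31.6% of all genes, 15% higher and 16.7% lower). Each strain was represented by a single line, and B4 arrays held chip positions A to C and C17 arrays D to F. Strain, line and position on the chip therefore cannot be told apart here. Eno3, the muscle enolase, was 2.96-fold higher (log2 change 1.57, SE 0.12, adjusted p = 9.7e-05, limma), the one 2-fold call among members (2.53% of all genes). It read 6.48 in R2i, 7.10 in PD and 6.83 in SB of C17 against 5.01, 5.37 and 5.33 in B4, where 2 of 3 arrays were above background. All C17 arrays were above all B4 arrays, including the 2 whose cell line field names B4. The Eno3 promoter window (GRCm38.p6, chr11:70656926-70657225, plus strand) is shown for this 2-fold call, and its match is a GCGTG on the other strand, read as CACGC in capitals, at position -130 from the start.
Eno3 promoter: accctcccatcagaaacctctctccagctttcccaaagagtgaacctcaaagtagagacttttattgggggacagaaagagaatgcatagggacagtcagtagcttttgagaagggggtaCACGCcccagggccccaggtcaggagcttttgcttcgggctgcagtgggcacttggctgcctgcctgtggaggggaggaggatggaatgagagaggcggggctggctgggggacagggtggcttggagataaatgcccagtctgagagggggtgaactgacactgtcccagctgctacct

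Ldha was 0.62 higher in C17 (12.69, 12.50 and 12.54 in R2i, PD and SB, against 11.95, 11.95 and 11.98 in B4) and Gapdh 0.48 lower (12.79, 12.60 and 12.78 against 13.26, 13.14 and 13.20), and neither overlapped between lines. Eno2 (0.47), Pgam1 (0.45) and Aldoc (0.38) were higher and Tpi1 (-0.35) lower, so enzymes moved in both directions. Pdk1 was 0.64 higher and Pdk3 0.42 lower, with 7.90, 8.06 and 7.97 in C17 against 8.33, 8.48 and 8.37 in B4. Ndrg1 was 0.79 lower, Ankrd37 0.66 and P4ha2 0.54 higher, P4ha2 reading 6.66, 6.57 and 6.69 against 6.19, 6.13 and 5.95. Hif1a was 0.41 higher (SE 0.13, adjusted p = 0.036, limma), with 6.51, 6.23 and 6.76 in C17 against 5.89, 6.09 and 6.31 in B4, which overlapped. With median scaling 6 members were higher and 5 lower, with 30.4% of all called genes higher in place of 47.3% and the median of all genes at -0.10. Without 1 array the count ran from 7, without either PD array, through 8, without either R2i array, to 10.

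**Figure D5:**
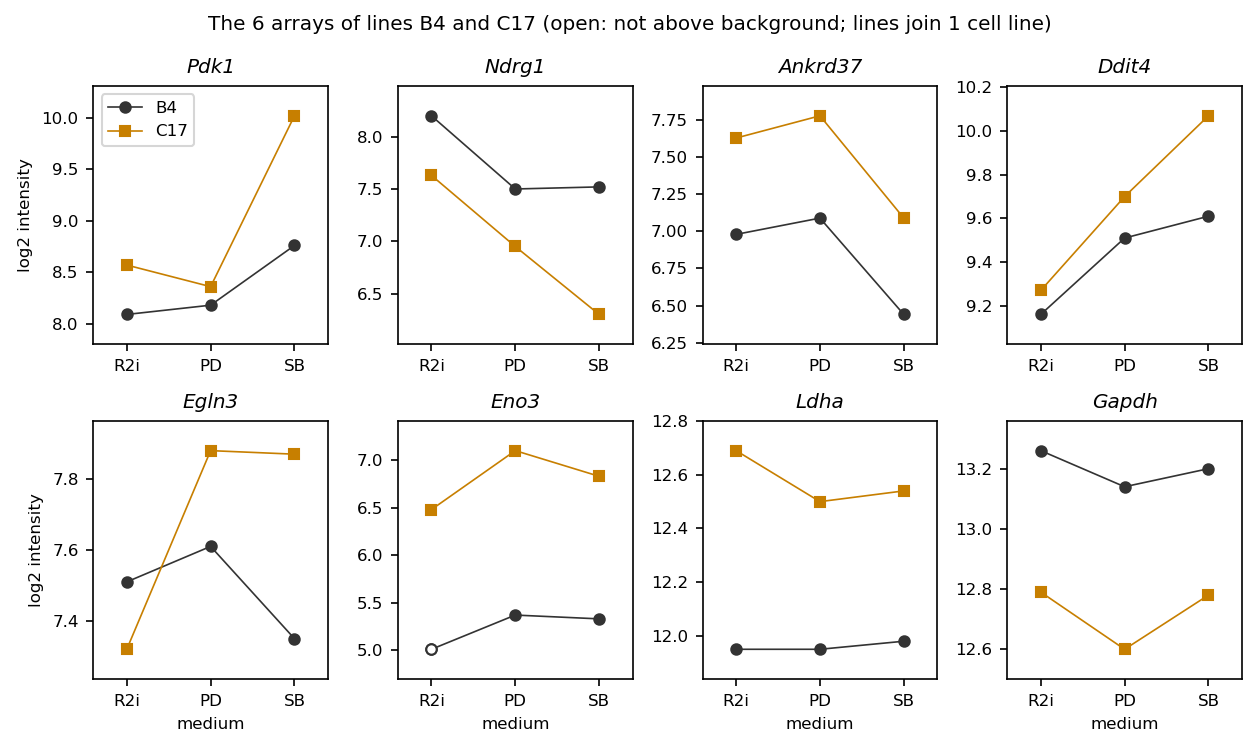
Log2 intensity of 8 members on the 6 arrays of B4 (circles) and C17 (squares), with lines joining the media of a cell line and an open symbol where the probe was not above background. Pdk1 is highest and Ankrd37 lowest in SB in each line, and Eno3, Ldha and Gapdh separate the lines in every medium.

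Other genes of the pathways did not share one direction. Of 44 symbols of glycolysis and pyruvate metabolism outside the module, older synonyms included, 22 were kept in B18 and B20. Of these, 4 rose and 3 fell in R2i against 2i, 4 and 5 in 2i against PD and 6 and 5 in R2i against PD. Over all genes, 14.2% rose and 13.4% fell in R2i against 2i, 11.4% and 12.2% in 2i against PD, and 9.23% and 9.58% in R2i against PD. Fbp2, the muscle fructose bisphosphatase that runs the phosphofructokinase step backwards, had the largest change, 1.49 higher in R2i than in 2i (SE 0.10) and 0.88 lower in 2i than in PD. Ldhc, the testis lactate dehydrogenase, was 1.31 higher in 2i and 1.04 higher in R2i than in PD. Pdk4, which inhibits pyruvate dehydrogenase like Pdk1, was 0.75 lower in R2i than in 2i and 0.64 higher in 2i than in PD. The glucose transporters Slc2a1 (-0.52 in 2i, -0.31 in R2i) and Slc2a3 (-0.31 and -0.32) were lower in each medium than in PD, and Fbp1 (0.39) was higher in R2i than in 2i. Hkdc1 was 0.36 higher in R2i than in PD.

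Of 47 further symbols of the HIF pathway, 29 were kept in B18 and B20. Here 10 were higher and 4 lower in R2i against 2i (14.2% and 13.4% of all genes), 4 and 7 in 2i against PD (11.4% and 12.2%) and 5 and 6 in R2i against PD (9.23% and 9.58%). Bhlhe40, a repressor raised by HIF, was 1.07 lower in R2i than in 2i and 0.72 lower than in PD. Angptl4 (-0.58) was also lower in R2i than in 2i, while Stc2 (0.51) and Bnip3l (0.45), a mitophagy receptor, were higher. Cited2, which competes with HIF for its coactivator, was 0.68 lower in R2i and 0.55 lower in 2i than in PD, and Rragd (0.65) and Ak4 (0.57) were higher in R2i than in PD. In 2i, Stc2 (-0.52) and Bnip3l (-0.45) were lower than in PD. In B4 and C17, where 21 and 27 genes of the 2 lists were kept, Egln2 (0.69 in R2i against SB), Pgam2 (0.91 in PD against SB) and Ak4 (-0.90 in PD against SB) were the calls between media. Of all genes, 2.2% were called in R2i against SB and 5.24% in PD against SB. Between the lines, 4 and 2 of the first list and 7 and 7 of the second were higher and lower in C17, beside 15% and 16.7% of all genes. The first list was led by Fbp2 (-1.15), Slc2a3 (-0.50), Dld (0.45) and Pdhb (0.45). The second was led by Car12 (-1.04), Cited2 (-0.87), Wsb1 (0.79) and Kcmf1 (-0.75). In B20 against B18, 15.7% and 17.3% of all genes were higher and lower. Of the first list 4 and 6 were, with Pgam2 (-0.43), Pdk4 (-0.41), Pdp2 (-0.40) and Hkdc1 (0.30) in front. Of the second 8 and 4 were, with Bhlhe40 (-0.58), Stc2 (0.56), Gys1 (0.48) and Plod1 (-0.32).

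RefSeq promoter windows of 300 bases were found for 35 of the 36 members, Ndrg1 being the one named only. In 41 of their 51 windows (80.4%) at least 1 ACGTG or GCGTG was found on either strand, against 43.8% of all 32851 windows, where CACGTG counts on each strand. The share was 75.9% for the windows of enzymes, 83.3% for those of regulators and 86.7% for those of HIF targets. Ldha had the most matches, 7 in a window, and Tpi1, Gpi1 and Eno2 had none. A match is a description of these letters, and the module was assembled in part from known HIF targets.

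The members without values were accounted for as follows. No probe carried the symbol of Hk2 or Ldhb on either platform, and none carried that of Gpi1 on the B18 and B20 arrays. Adm, Bnip3, Egln1, Ero1l and Pfkfb3 had probes but did not pass detection in either set of lines. P4ha1 did not pass in B18 and B20, and Car9 and Hk1 did not pass in B4 and C17.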

How the data were processed

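Intensities per probe and detection p-values were deposited by the authors in the column layout of GenomeStudio, per the file headers, and negative control probes lay near the level of undetected probes, so the values were taken as not background-subtracted. A deposited table of the authors' log2 values served as an alternative. GenomeStudio and limma are named, without their roles, per the submitters' processing notes, and their versions are not given in the sources used here. Here each platform went through limma's neqc function (limma 3.58.1, R 4.3.3; background by negative control probes, quantile normalisation, log2 after an offset of 16). Probes with a detection p under 0.01 on at least 2 arrays were kept, symbols were updated through RefSeq (GRCm38.p6) while members kept the symbol in the files, and the probe with the highest mean stood for a gene. Members with several kept probes gave 60 pairs of member and comparison. In 14 of these pairs some probes passed and others did not, and in 0 did probes pass in opposite directions. The fits held 9207 genes on the B18 and B20 arrays and 11002 genes on those of B4 and C17. limma was fitted on all of them (group means for B18 and B20 with 10 residual degrees of freedom, medium plus line for B4 and C17 with 2), with Benjamini-Hochberg adjustment, a call at 0.05 and a 2-fold call at an absolute log2 change of 1 or more. A log2 change understates the change of dim probes, since the offset remains in the values. The number of arrays limits the precision. Pipelines were tested on simulated data. Same-numbered replicates of a line did not deviate together (r from -0.12 to 0.13), so replicates were not paired. The members and gene lists were chosen with earlier results of these data known. Every member is named. Values per array were given for members with a 2-fold call and for the 3 members with the largest called change in each role and comparison, and up to 4 called genes were named per pathway list and comparison. Alternatives were the scaling, background, offset, filter, probe choice, replicate block, array weights, lines alone and single arrays left out.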

Additional observations from a re-analysis of the deposited data

Results flagged for a closer look

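For 12 results the change between media differed between lines B18 and B20 at an adjusted p under 0.05 (limma, difference of the changes, B20 minus B18). For R2i against PD these were Pfkl (0.75, SE 0.18), Pfkm (0.58, SE 0.13), Eno1 (0.78, SE 0.17), Eno3 (0.63, SE 0.17), Pkm2 (0.51, SE 0.14), Egln3 (0.56, SE 0.14) and Ddit4 (-0.71, SE 0.14). For 2i against PD they were Pfkm (0.58, SE 0.14), Ldha (1.15, SE 0.22), Pdk1 (0.66, SE 0.14) and Egln3 (1.16, SE 0.16), and for R2i against 2i Ddit4 (-0.78, SE 0.15). The first 2 comparisons share their PD arrays. Adjusted p ran from 0.0018 for Egln3 in 2i against PD to 0.04995 for Pkm2. With each of the 16 arrays left out, Pfkm lost its call for 2i against PD in 15 fits, Pdk1 in 6, Ldha in 2 and Egln3 in 0. For R2i against PD the losses were 13 for Pkm2, 11 for Eno3, 9 for Egln3, 8 for Pfkl, 4 for Pfkm, 1 for Eno1 and 0 for Ddit4. Ddit4 lost its call for R2i against 2i in 2 fits. Line and chip cannot be told apart in these values.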

How the results depend on the processing

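Counts of members called were compared with those of other settings. Shares of all genes called under these settings, and with arrays left out, are not given here. Whether all genes lost or gained calls alike can therefore not be read from these counts. In B18 and B20, 8 members for R2i against PD became 4 with B20 alone, and 14 for 2i against PD became 8 with median scaling and 5 with B18 alone. The 7 differences between lines for R2i against PD became 4 with median scaling, 3 with no detection filter and 11 with array weights, and the 1 for R2i against 2i became 4 with median scaling, 3 with no background correction, an offset of 50 or a trended robust prior, and 2 with detection on every array. With the replicate number as a block, although the numbers did not pair the arrays, the differences between lines became 4 for R2i against PD, 2 for 2i against PD and 0 for R2i against 2i. In B4 and C17, no background correction left 1 call for R2i against SB and 1 for PD against SB, no filter left 0 and 0, and averaging probes left 1 for R2i against SB. The 13 calls between C17 and B4 became 7 with no filter. In B4 and C17 the fit already compares media within lines, and no further block could be fitted with 1 array per line and medium.

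Leaving out each array gave 6 to 8 calls for R2i against PD, 10 to 14 for 2i against PD, 12 to 17 for R2i against 2i and 13 to 18 for B20 against B18. Differences between lines ran from 1 to 10, 1 to 5 and 0 to 5. In B4 and C17 the ranges were 0 to 1 for R2i against PD, 0 to 5 for R2i against SB, 0 to 2 for PD against SB and 7 to 10 for C17 against B4, where a line left with 1 array in a medium is assumed to vary like the others. Signs turned for Pfkl (0.07, B20 alone) and Pfkm (-0.07, B18 alone) in R2i against PD, for Egln3 (-0.24), Ldha (-0.02) and Pdk1 (-0.12) with B18 alone in 2i against PD, and for Pkm2 (0.01, median scaling) between the lines. Of the other settings for single members, 852 kept the call and 90 lost it, and with single arrays left out 977 kept it and 181 lost it. The causes were not tested. Fits of single lines also hold fewer arrays.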
